A study of Mus musculus with 11 samples.

Results

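The genes of the nuclear-encoded subunits of the mitochondrial respiratory chain and ATP synthase were followed in mouse embryonic stem (ES) cells kept in 3 media. Members were all genes whose mouse symbol begins with Nduf (a, b, c, s or v and a digit), Uqcr, Atp5 or Cox followed by a digit from 4 to 8, together with the 4 Sdh subunits. The arrays named 84 such genes among 20964 named genes, and 83 of the 84 were among the 16279 genes tested. Cox8b, a subunit isoform of heart and skeletal muscle, rose well above background on none of the arrays and stayed out of the test. The 84 genes comprise 35 of complex I, 4 of complex II, 8 of complex III, 20 of complex IV and 17 of complex V, with Ndufa4 and Ndufa4l2 counted in complex IV. No mitochondrially encoded subunit had a named probe.

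All cells were of 129/Ola background, from the lines E14, HVJu5.1 and HVJu9.3, and had spent at least 3 passages in their medium, with the cytokine LIF in every medium. There were 3 arrays of serum/LIF, the standard medium, 5 of 2i/LIF, in which the kinases MEK and GSK3 are inhibited, and 3 of KOSR/LIF, in which a defined supplement takes the place of serum. No medium without LIF was included. The labels do not say whether repeats of a line were separate cultures, and titles and source names disagree on the line of 2i/LIF replicates 1 to 4.

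Oxidative phosphorylation passes electrons from NADH through complex I, or from succinate through complex II, to ubiquinone, then through complex III, cytochrome c and complex IV to oxygen. Complexes I, III and IV pump protons, and complex V, the ATP synthase, uses their return to make ATP. Complex IV is unusual in that several of its small nuclear subunits exist as a widely expressed form and a form restricted to muscle, lung, testis or hypoxic cells. Pluripotent cells are known for heavy use of glycolysis, and the balance with respiration is known to shift between naive and primed states.

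Levels below are log2 processed intensity relative to the array's 75th percentile, differences are log2 differences with their standard error (SE), and a gene was called when limma's adjusted p was under 0.05. The 75th percentile of intensity ran from 65.3 on KOSR/LIF replicate 3 to 538 on 2i/LIF replicate 1, and the share of probes well above background from 43.7% on the same KOSR/LIF array to 72.6%. Of the 83 members tested, 80 were well above background on all 11 arrays, and none was saturated. The arrays were scanned on 3 days, of which the second held only 2i/LIF replicate 2 and KOSR/LIF replicate 3. All 8 ES cell markers examined were tested and none was below background throughout a medium. When 2i/LIF was set against serum/LIF, 2 of them (Tdgf1 and Utf1) were called lower. In KOSR/LIF against serum/LIF 1 (Sox2) was called lower. Between 2i/LIF and KOSR/LIF, 3 (Esrrb, Nanog and Sox2) were called higher and 1 (Utf1) lower in 2i/LIF. Pou5f1 read 3.69 on KOSR/LIF replicate 3, against 5.917 and 5.655 on the other KOSR/LIF arrays. Nanog read 1.21 there, against 2.93 and 3.45. In bulk samples, fewer cells of a type and less RNA per cell cannot be told apart.

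Few subunit genes passed the test in any comparison. Between 2i/LIF and serum/LIF, 1 of 83 members was called, Cox7a1, which was higher in 2i/LIF, where 16.7% of all genes were called (6.74% higher and 9.98% lower). Between KOSR/LIF and serum/LIF, 1 member was called, Cox8c, higher in KOSR/LIF, against 4.57% of all genes (2.37% higher and 2.21% lower). Between 2i/LIF and KOSR/LIF, Cox6b1 was higher and Cox8c lower in 2i/LIF, 2 of 83 against 14.7% of all genes (5.95% higher and 8.71% lower). All 3 genes encode subunits of complex IV. At an unadjusted p under 0.05 the counts were 8, 4 and 7 members (9.64%, 4.82% and 8.43%), against 27%, 18.7% and 27.2% of all genes.

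The precision of the arrays bounded most members. The whole 95% interval of the difference lay within 2-fold for 64 of 83 members (77.1%) in 2i/LIF against serum/LIF, where the same held for 41.6% of all genes. It did so for 67 members (80.7%) in each of the other comparisons, against 34.5% and 39.7% of all genes. Bounds within 1.5-fold were reached by 11, 6 and 13 members, so shifts of that size were mostly not resolved. The probes of members varied less between replicate arrays (median SD 0.30) than those of all genes (0.44). Members were also much brighter, with a median level of 5.79 against 0.21 for all genes, and 68 of 83 lay in the top 10% of all genes tested. The part of signal level in the narrower intervals and smaller SD was not tested.

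**Figure D1:**
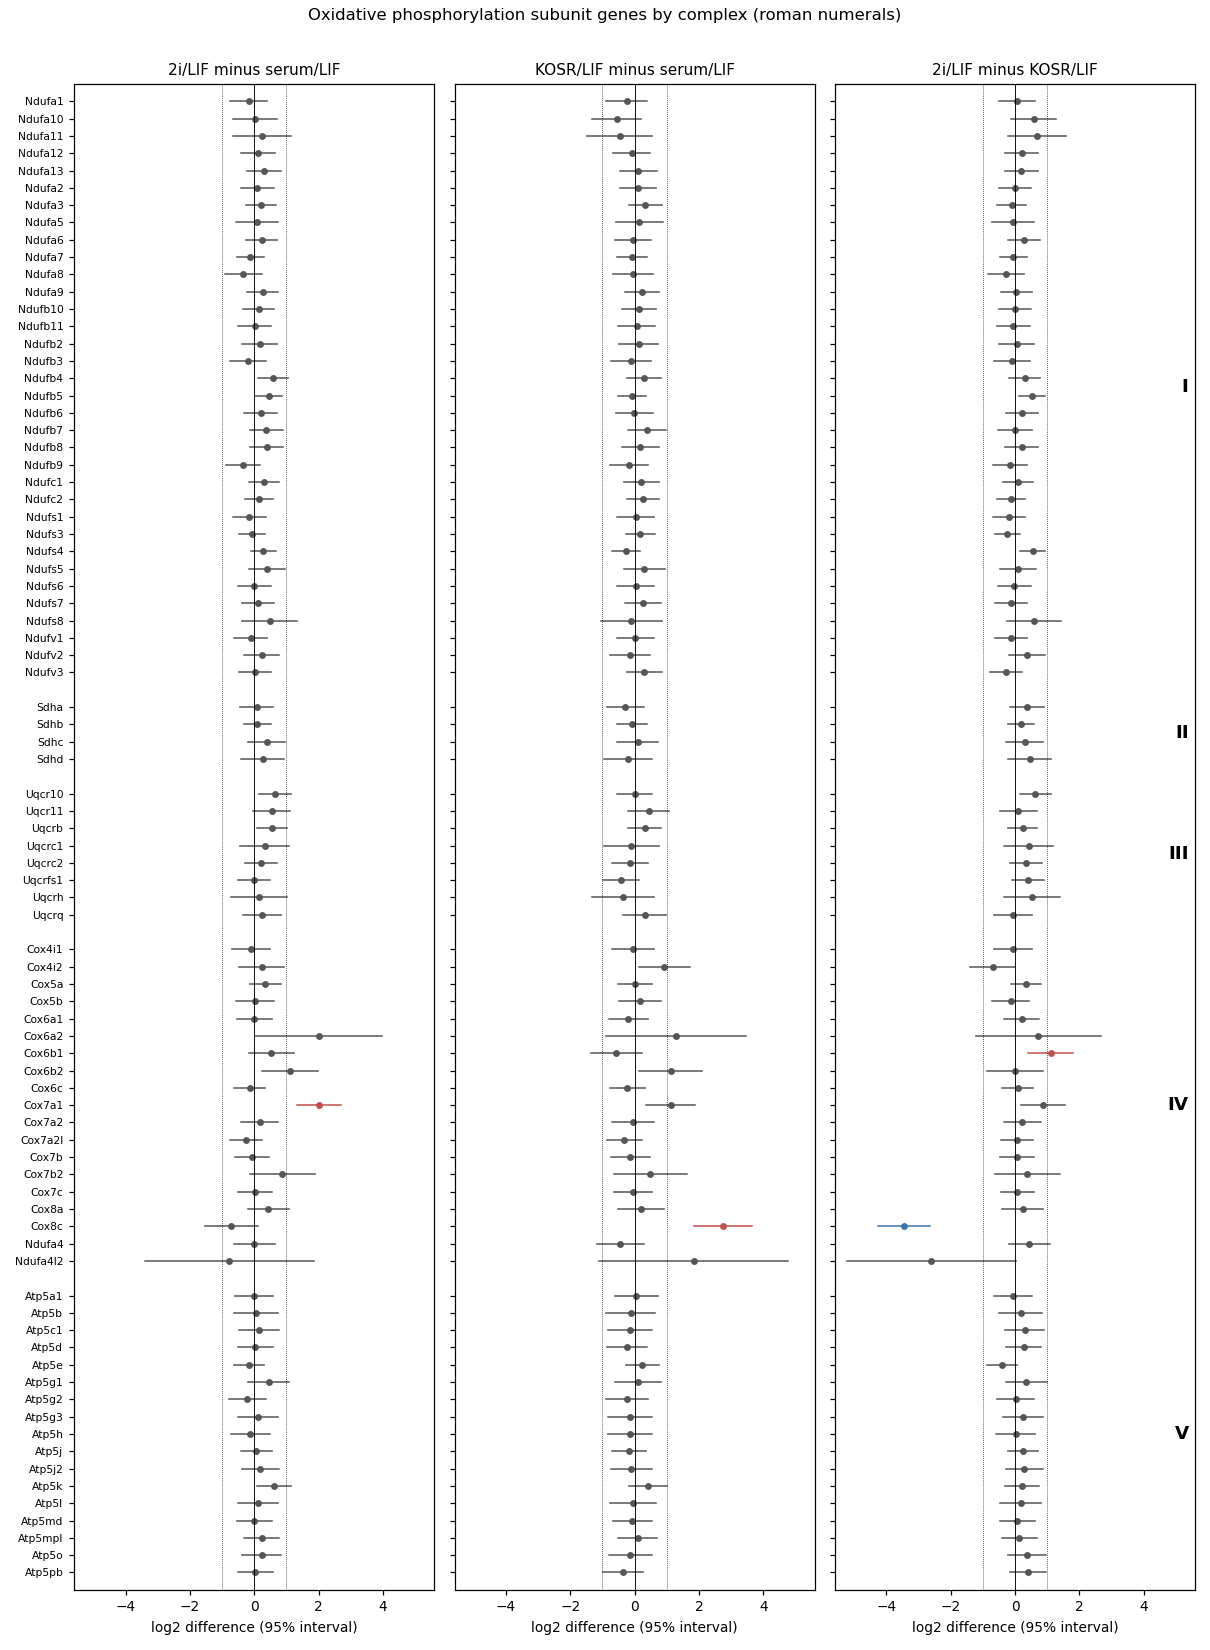
Fitted log2 difference (point) and 95% interval (line) of 82 of the 83 subunit genes, by complex, in the 3 comparisons, with dotted lines at 2-fold. Red marks genes called higher (Cox7a1, Cox8c and Cox6b1, 1 in each comparison) and blue the gene called lower (Cox8c). Most intervals lie between the dotted lines, and the wide ones are mostly those of complex IV isoforms.

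Complex I, which oxidises NADH, had no called member in any comparison among its 35 genes. Its median difference was 0.13 in 2i/LIF against serum/LIF, 0.03 in KOSR/LIF against serum/LIF and 0.04 in 2i/LIF against KOSR/LIF, and 31 of 35 intervals lay within 2-fold in each. The values that involve KOSR/LIF changed sign with the scaling, from -0.15 with normexp to 0.22 with quantile normalization against serum/LIF and from 0.25 to -0.10 in 2i/LIF against KOSR/LIF.

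Ndufa13, an accessory subunit also known as GRIM-19, stood for the complex as its member of highest mean signal. Its level was 7.27, 6.91 and 6.68 in serum/LIF, 7.38, 6.82, 7.14, 7.66 and 7.34 in 2i/LIF and 6.85, 7.17 and 7.18 in KOSR/LIF. The media overlapped, and the difference of 2i/LIF from serum/LIF was 0.31 ± 0.24 (SE; 95% interval -0.21 to 0.84). Closest to the threshold in the complex were Ndufb4 (0.57 ± 0.22, limma adjusted p = 0.0976) and Ndufb5 (0.45 ± 0.18, adjusted p = 0.129), both membrane-arm accessory subunits, in 2i/LIF against serum/LIF. Against KOSR/LIF they were Ndufs4, a subunit whose loss causes a mouse model of Leigh syndrome (0.55 ± 0.18, adjusted p = 0.0655), and Ndufb5 (0.53 ± 0.18, adjusted p = 0.0772). A second passing probe of Ndufb5 gave 0.04 in 2i/LIF against serum/LIF, the widest gap between probes of a member there, and 0.51 against KOSR/LIF.

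Complex II, succinate dehydrogenase, links the chain to the tricarboxylic acid cycle. None of its 4 genes was called. Sdhb, its iron-sulfur subunit, read 5.87, 5.89 and 5.96 in serum/LIF, 5.86, 5.83, 5.96, 6.29 and 6.09 in 2i/LIF and 5.89, 5.90 and 5.69 in KOSR/LIF. These ranges overlapped, and its interval reached from -0.32 to 0.51 in 2i/LIF against serum/LIF and from -0.55 to 0.38 in KOSR/LIF against serum/LIF. All 4 genes (Sdha, the flavoprotein, Sdhb, and the membrane anchors Sdhc and Sdhd) had positive differences in 2i/LIF against either other medium. The medians were 0.18 against serum/LIF and 0.34 against KOSR/LIF, and all 4 intervals lay within 2-fold against serum/LIF. Against KOSR/LIF the median ran from 0.0994 to 0.46 with 1 array left out. It was 0.11 in the deposited table and 0.19 within the first scan day. With each gene centred on its mean over the arrays, the complex median was -0.62 on KOSR/LIF replicate 3. It was 0.01 and 0.07 on the other KOSR/LIF arrays.

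Complex III, the cytochrome bc1 complex, had the highest complex median in 2i/LIF against serum/LIF, 0.29 over 8 genes, without a called gene. Uqcr10, a small subunit (0.64 ± 0.22, limma adjusted p = 0.0754), and Uqcrb, the ubiquinone-binding protein (0.56 ± 0.21, adjusted p = 0.0986), were nearest, and both had every 2i/LIF array above every serum/LIF array. The Rieske iron-sulfur protein gene Uqcrfs1 differed by -0.01 and the core proteins Uqcrc1 and Uqcrc2 by 0.33 and 0.22. Uqcrq, the member with the highest mean signal, read 6.59, 6.90 and 6.45 in serum/LIF, 6.39, 6.62, 7.12, 7.04 and 7.30 in 2i/LIF and 7.12, 7.27 and 6.49 in KOSR/LIF. Its media overlapped. Of the 8 intervals of the complex, 3 lay within 2-fold in 2i/LIF against serum/LIF, 6 in KOSR/LIF against serum/LIF and 5 in 2i/LIF against KOSR/LIF. Another passing probe of Uqcr10 was called higher in 2i/LIF than in KOSR/LIF (0.95, adjusted p = 0.0432), where the probe that stood for the gene gave 0.63 (adjusted p = 0.0924, both from a limma fit over all probes).

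Complex V, the ATP synthase, had no called member among 17 genes. Its median differences were 0.06, -0.12 and 0.20 in the order of the comparisons above, and 15, 16 and 17 of the 17 intervals lay within 2-fold. In the deposited table the medians of KOSR/LIF against serum/LIF and of 2i/LIF against KOSR/LIF were 0.13 and -0.0059. Atp5b, the catalytic beta subunit, read 8.52, 8.52 and 7.61 in serum/LIF, 7.99, 7.93, 8.74, 8.74 and 7.99 in 2i/LIF and 8.24, 8.32 and 7.74 in KOSR/LIF. In each medium its highest arrays were those of the first scan day. Atp5k, subunit e of the membrane sector, came nearest to a call (0.63 ± 0.24 in 2i/LIF against serum/LIF, adjusted p = 0.106).

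Complex IV, cytochrome c oxidase, held every called gene. Its 7 tested restricted isoforms had a median SD of 0.60 between replicate arrays, against 0.30 for all members, and their widely expressed partners did not pass the test except Cox6b1. Cox7a1, the heart and skeletal muscle form of subunit VIIa, read 2.96, 2.90 and 3.17 in serum/LIF, 5.66, 4.25, 4.81, 5.1 and 5.23 in 2i/LIF and 4.03, 4.60 and 3.78 in KOSR/LIF. Every 2i/LIF and every KOSR/LIF array lay above every serum/LIF array, while 2i/LIF and KOSR/LIF overlapped. The difference of 2i/LIF from serum/LIF was 2.00 ± 0.31 (4.01-fold; limma adjusted p = 0.0009), and it was called in all 28 other settings tested.

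In KOSR/LIF against serum/LIF, Cox7a1 differed by 1.13 ± 0.35 (adjusted p = 0.0972). That value was 1.48 (adjusted p = 0.0109) with the scan day as a block and 1.38 (adjusted p = 0.0495) within the first scan day. Cox7a2, the widely expressed partner, lay between 5.27 and 5.77 in serum/LIF, between 5.00 and 6.0 in 2i/LIF and between 5.15 and 5.63 in KOSR/LIF. Its interval in 2i/LIF against serum/LIF, -0.41 to 0.75, lay below that of Cox7a1, 1.32 to 2.68. The heart and skeletal muscle marker list had a log2 summed level between 1.37 and 2.34 on serum/LIF arrays, between 0.48 and 1.18 on 2i/LIF arrays and between 2.06 and 2.47 on KOSR/LIF arrays. Of its 6 tested genes, 1 was called higher and 2 lower in 2i/LIF against serum/LIF, and Ckm was below background on all KOSR/LIF arrays. The part of such cells in the Cox7a1 difference was not tested.

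Cox8c, the testis form of subunit VIII, read -3.54, -2.76 and -3.48 in serum/LIF, -3.91, -4.52, -4.14, -4.24 and -3.04 in 2i/LIF and -0.46, 0.07 and -1.15 in KOSR/LIF. The 3 KOSR/LIF arrays lay above the other 8. The difference was 2.75 ± 0.42 against serum/LIF (6.71-fold; adjusted p = 0.0062), and 2i/LIF against KOSR/LIF was -3.46 ± 0.37 (adjusted p = 0.0001). The probe was well above background on 3 of 5 arrays in 2i/LIF and on all 6 others, and once dim signals were replaced by the lowest detected one, KOSR/LIF exceeded 2i/LIF by 9.93-fold in place of 11-fold.

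Cox8a, the widely expressed partner of Cox8c, lay between 7.06 and 8.02 in serum/LIF and between 7.60 and 8.54 in 2i/LIF. In KOSR/LIF it lay between 7.57 and 8.10, and its difference of KOSR/LIF from serum/LIF was 0.21 ± 0.33. The log2 summed level of 6 germ cell markers lay between 6.18 and 7.24 in KOSR/LIF, between 2.84 and 4.14 in serum/LIF and between 2.24 and 4.30 in 2i/LIF, and none of the 6 was below background throughout a medium. Stra8 alone read between 5.90 and 7.01 in KOSR/LIF. In KOSR/LIF against serum/LIF, 3 of 6 (Dazl, Mael and Stra8) were called higher, and Ddx4, Sycp3 and Tex101 differed by 0.42, 0.06 and 1.57 without passing the test. Dazl was also called higher in 2i/LIF than in serum/LIF (2.96, limma adjusted p = 0.0066), a comparison in which Cox8c differed by -0.71 and was not called. The part of these markers in the Cox8c difference was not tested.

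Cox6b1, the widely expressed form of subunit VIb, read 4.05, 4.23 and 3.89 in serum/LIF, 4.29, 4.17, 4.92, 4.94 and 4.63 in 2i/LIF and 3.87, 3.96 and 2.63 in KOSR/LIF. All 2i/LIF arrays lay above all KOSR/LIF arrays, and the lowest was KOSR/LIF replicate 3, the dimmest array. The difference of 2i/LIF from KOSR/LIF was 1.11 ± 0.32 (2.15-fold; adjusted p = 0.0397), 1.02 (adjusted p = 0.0214) within the first scan day, and 0.68 (adjusted p = 0.127) without KOSR/LIF replicate 3. The call held in 16 of 27 other settings, and was also lost without any 1 of the serum/LIF arrays or of 2i/LIF replicates 3, 4 and 5 (adjusted p from 0.0556 to 0.0867). Cox6b2, its testis form, read 3.48, 3.60 and 2.73 in serum/LIF, 4.59, 5.01, 4.54, 4.41 and 3.41 in 2i/LIF and 3.83, 4.17 and 5.19 in KOSR/LIF. It differed by 1.12 ± 0.40 (adjusted p = 0.0816) in 2i/LIF and by 1.12 ± 0.45 (adjusted p = 0.198) in KOSR/LIF, each against serum/LIF.

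The other restricted isoforms did not pass the test. Cox4i2, the lung and hypoxia form of subunit IV, read -0.54, -0.38 and -0.54 in serum/LIF, -0.39, 0.13, -0.21, -0.53 and -0.28 in 2i/LIF and -0.28, 0.27 and 1.33 in KOSR/LIF. Cox6a2, the heart and muscle form of subunit VIa, read -3.51, -3.62 and -2.89 in serum/LIF, -2.50, 1.23, -1.36, -3.80 and -0.18 in 2i/LIF and -2.59, -1.28 and -2.28 in KOSR/LIF. Its 2i/LIF arrays were the most scattered, and the difference from serum/LIF was 2.02 ± 0.89 (adjusted p = 0.168). Cox7b2, a testis form, read -2.01, -2.44 and -1.67 in serum/LIF, -0.30, -2.02, -0.83, -1.72 and -0.94 in 2i/LIF and -0.52, -1.80 and -2.31 in KOSR/LIF. The probes of Cox6a2 and Cox7b2 were detected on 2 of the 3 arrays of KOSR/LIF.

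Ndufa4l2, the hypoxia-induced relative of Ndufa4, read 1.09, 2.06 and -0.43 in serum/LIF, -0.22, -0.97, 3.25, 2.03 and -3.40 in 2i/LIF and 2.76, 2.52 and 2.93 in KOSR/LIF. Its KOSR/LIF arrays lay close together, and its 2i/LIF arrays spanned the whole range seen, so no difference of it was resolved (2i/LIF against KOSR/LIF, -2.60 ± 1.20, adjusted p = 0.187). Over the 7 tested restricted isoforms, all 7 differences of KOSR/LIF from serum/LIF were positive, with a median of 1.13 against -0.03 for all genes. In 6 of the 7 the KOSR/LIF arrays lay above the serum/LIF arrays, which was so for 12.4% of all genes. The median level of the 7 was -0.13, against 0.21 for all genes. Over all genes the median of this comparison was 0.15 without a dim-probe filter and -0.08 with the stricter one. KOSR/LIF replicate 3, the dimmest array, held the highest KOSR/LIF level of Cox4i2, Cox6b2 and Ndufa4l2 and the lowest of Cox7a1, Cox7b2 and Cox8c. The part of signal level in these differences was not tested. Of the 7 differences of 2i/LIF from serum/LIF, 5 were positive, with a median of 0.88, and in 1 of the 7 every 2i/LIF array lay above, against 11.7% of all genes. Of those of 2i/LIF from KOSR/LIF, 3 of the 7 were positive, with a median of -0.0024.

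Their partners Cox4i1, Cox6a1, Cox7b and Ndufa4 showed smaller differences. Cox6a1, the complex IV member with the highest mean signal, read 8.74, 8.91 and 8.41 in serum/LIF, 8.55, 8.24, 9.07, 9.06 and 8.51 in 2i/LIF and 8.58, 8.57 and 8.29 in KOSR/LIF. Its difference of 2i/LIF from serum/LIF was 0.00 ± 0.25 (interval -0.54 to 0.54). Cox4i1 ranged from 7.40 to 8.07, 7.23 to 8.22 and 7.69 to 7.86 in serum/LIF, 2i/LIF and KOSR/LIF, and Cox7b from 6.62 to 7.05, 6.27 to 7.20 and 6.66 to 6.78. Ndufa4 lay between 5.04 and 5.11 in serum/LIF, between 4.21 and 5.52 in 2i/LIF and between 4.32 and 4.83 in KOSR/LIF, so its KOSR/LIF arrays lay below its serum/LIF arrays, with a difference of -0.44 ± 0.33 (adjusted p = 0.511).

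**Figure D2:**
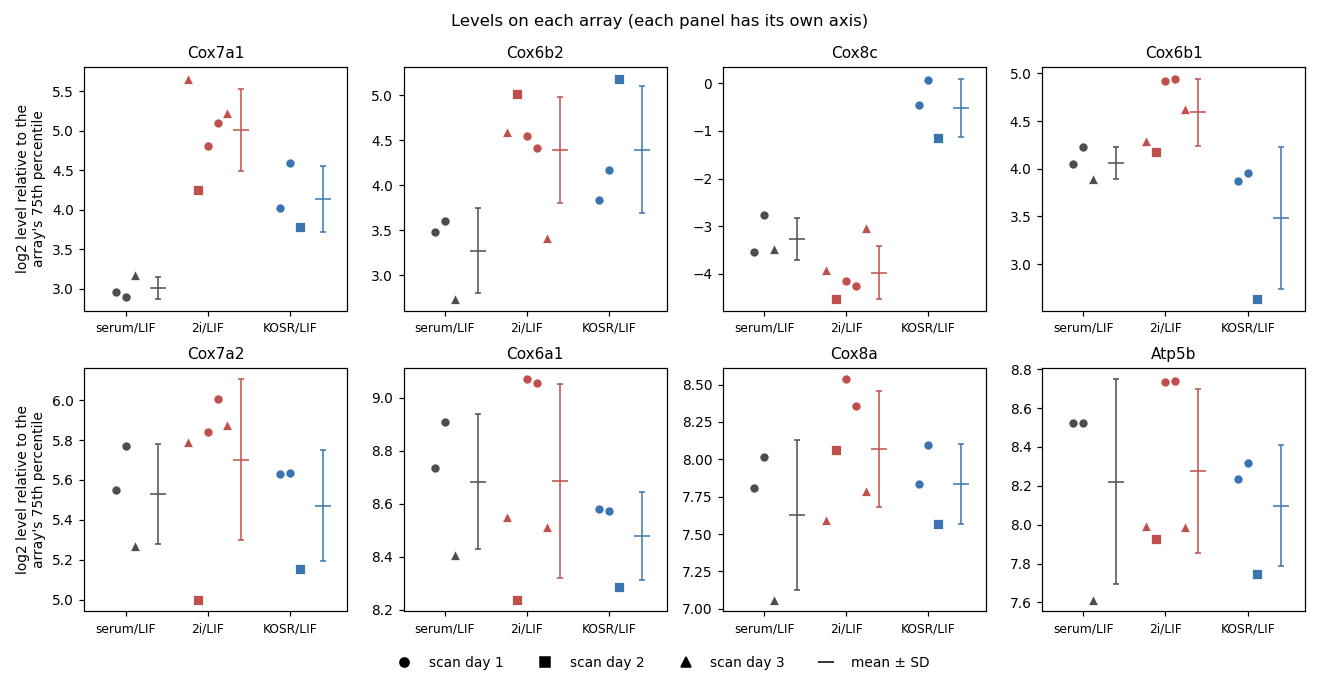
Log2 level relative to the array's 75th percentile (vertical axis, a separate one in each panel) on each of the 11 arrays, for the called complex IV genes Cox7a1, Cox8c and Cox6b1, for Cox6b2, and for Cox7a2, Cox6a1, Cox8a and Atp5b. Marker shape gives the scan day, and bars give mean ± SD of the medium. Cox7a1 is lowest in serum/LIF and Cox8c highest in KOSR/LIF, while the lower row overlaps between media.

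The promoter windows of 2 isoform pairs and of Cox6a1 are shown because in both pairs the restricted gene held fewer CpG dinucleotides than its partner. Cox6a2, the restricted form beside Cox6a1, had no window. Windows run from 250 bases before to 50 after the start, in RefSeq's GRCm38.p6, and 68 of the 84 members had one, 73 windows in all. The windows are chr7:30183921-30184220 on the plus strand, chr9:79759804-79760103 on the minus strand, chr7:4753045-4753344 on the minus strand, chr7:30626065-30626364 on the minus strand and chr5:115348909-115349208 on the minus strand. Capitals mark matches to the letters CGCATGCG (core of the NRF1 site, its own reverse complement), CCGGAAG (ETS family), AAGATGGC (YY1), AAGGTCA (oestrogen-related receptors) or GGGCGG (the GC box) on either strand. These letters were settled after the windows had been searched, and those for NRF1 were shortened then from a longer form of the site, which was rarer in both sets of windows.
Cox7a1: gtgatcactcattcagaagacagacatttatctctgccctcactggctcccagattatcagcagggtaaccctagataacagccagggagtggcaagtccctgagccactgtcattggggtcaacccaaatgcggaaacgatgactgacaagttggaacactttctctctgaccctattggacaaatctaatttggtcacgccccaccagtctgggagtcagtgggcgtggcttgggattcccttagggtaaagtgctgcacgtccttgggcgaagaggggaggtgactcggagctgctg
Cox7a2: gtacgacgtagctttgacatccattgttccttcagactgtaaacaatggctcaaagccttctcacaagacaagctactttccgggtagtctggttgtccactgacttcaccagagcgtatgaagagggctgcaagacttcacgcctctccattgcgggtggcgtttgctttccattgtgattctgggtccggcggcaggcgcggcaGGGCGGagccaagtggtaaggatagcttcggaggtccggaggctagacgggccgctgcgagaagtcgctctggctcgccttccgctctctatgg
Cox6b2: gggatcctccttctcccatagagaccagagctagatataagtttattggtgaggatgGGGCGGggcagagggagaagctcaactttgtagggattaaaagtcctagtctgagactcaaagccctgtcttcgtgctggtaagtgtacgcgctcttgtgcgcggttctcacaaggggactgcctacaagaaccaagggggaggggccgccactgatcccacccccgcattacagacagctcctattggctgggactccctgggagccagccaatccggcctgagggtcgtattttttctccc
Cox6b1: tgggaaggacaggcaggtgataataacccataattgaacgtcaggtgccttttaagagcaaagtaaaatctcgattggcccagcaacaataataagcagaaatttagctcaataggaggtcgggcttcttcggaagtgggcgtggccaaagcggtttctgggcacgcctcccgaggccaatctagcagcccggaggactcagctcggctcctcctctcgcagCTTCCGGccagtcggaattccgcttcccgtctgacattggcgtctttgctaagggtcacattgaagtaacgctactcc
Cox6a1: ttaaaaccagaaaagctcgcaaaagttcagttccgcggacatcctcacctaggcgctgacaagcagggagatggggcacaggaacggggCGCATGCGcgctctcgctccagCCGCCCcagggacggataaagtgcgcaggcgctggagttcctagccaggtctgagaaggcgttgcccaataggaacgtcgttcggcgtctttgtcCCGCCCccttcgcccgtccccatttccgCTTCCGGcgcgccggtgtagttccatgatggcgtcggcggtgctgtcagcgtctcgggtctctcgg
Cox6a1 held 1 NRF1, 1 ETS and 2 GC box matches, Cox6b1 1 ETS match, and Cox7a2 and Cox6b2 1 GC box match each, while the window of Cox7a1 held none. The NRF1 letters were found in 12.3% of member windows and 1.87% of all 32851 windows of that length. The ETS letters were found in 23.3% and 8.86%, the YY1 letters in 13.7% and 2.75%, and the receptor letters in 11% and 4.72%. The GC box was about as frequent in member windows (39.7%) as in all windows (35.7%). Matches of 2 different motifs overlapped in 1 member window. The NRF1, ETS and GC box letters contain CpG, and shares were not compared between windows of like CpG content. Member windows held a median of 19 CpG dinucleotides against 7 in all windows. The 4 restricted isoforms with a window held fewer, namely 2 for Cox8b, 7 for Cox7a1 and 10 each for Cox6b2 and Cox7b2. In contrast, Cox7a2 held 20, Cox6b1 17 and Cox6a1 32. The 69 windows of the other members ran from 5 to 43, so low counts were not particular to the restricted forms. A match of letters is a description of the window and not a binding site.

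As a group the members had a slightly positive median difference of 2i/LIF from serum/LIF, while their medians on single arrays overlapped. With each gene centred, these array medians lay between -0.18 and 0.07 in serum/LIF and between -0.35 and 0.34 in 2i/LIF (pooled SD 0.23). The median difference of members was 0.13, against 0.03 for all genes. Of 83 differences 64 were positive, against 8484 of 16279 for all genes. The median stayed between 0.13 and 0.15 under each other scaling, and was 0.02 with 47 positive under the replicate block. With 1 array left out it ran from 0.0842 without 2i/LIF replicate 4 to 0.26 without 2i/LIF replicate 2. Of the 83, 5 had every 2i/LIF array above every serum/LIF array and 0 the reverse, where the arrays of 25.7% of all genes did not overlap (11.7% higher and 14% lower). For KOSR/LIF against serum/LIF the median was -0.05, with 40 positive differences, and it turned to 0.15 with quantile normalization, to 0.20 in the deposited table and to -0.26 with normexp. With 1 array left out it ran from -0.11 without KOSR/LIF replicate 2 to 0.16 without KOSR/LIF replicate 3, where 61 were positive, and it was also positive without serum/LIF replicate 1 (0.0143) or 2 (0.0566). There 11 members had all KOSR/LIF arrays above and 7 all below, against 28.4% of all genes without overlap (12.4% higher and 16% lower). For 2i/LIF against KOSR/LIF the median was 0.18, with 57 positive differences, and it was 0.03 with quantile normalization and -0.04 in the deposited table. With 1 array left out it ran from 0.0032 without KOSR/LIF replicate 3, where 44 were positive, to 0.25 without 2i/LIF replicate 2, and it was 0.0772 without 2i/LIF replicate 4. There 6 members had all 2i/LIF arrays above and 1 all below, against 19.6% of all genes without overlap (9.04% higher and 10.6% lower).

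Markers of other cell types differed between the same media. Setting 2i/LIF against serum/LIF, limma called 5 of 9 tested fibroblast or feeder markers lower, 3 of 8 trophoblast, 2 of 8 primitive endoderm and 2 of 6 neural markers, and none of these 4 lists held a marker called higher. Against KOSR/LIF, 7 of 8 primitive endoderm markers, 5 of 9 fibroblast or feeder, 2 of 6 neural and 1 of 8 trophoblast markers were called lower in 2i/LIF, again with none higher. In KOSR/LIF against serum/LIF, 2 of 8 trophoblast markers and 1 of 6 neural markers were called lower, and 1 fibroblast (Col1a2) and 1 primitive endoderm marker (Gata4) higher. The log2 summed level of the fibroblast or feeder markers lay between 2.41 and 3.89 in serum/LIF, between 0.98 and 1.42 in 2i/LIF and between 2.98 and 3.84 in KOSR/LIF. That of the primitive endoderm markers lay between 1.27 and 1.91 in serum/LIF, between -1.63 and -0.32 in 2i/LIF and between 0.89 and 3.85 in KOSR/LIF. The trophoblast markers summed to between 6.46 and 7.49 in serum/LIF, between 3.65 and 4.40 in 2i/LIF and between 3.92 and 5.07 in KOSR/LIF, and the neural markers to between 3.71 and 3.76, 3.12 and 4.25, and 3.17 and 4.18. Krt18 alone read between 5.93 and 7.11 in serum/LIF. The 3 trophoblast markers called in 2i/LIF against serum/LIF were Krt7, Krt8 and Krt18. Cdx2, Elf5, Eomes, Gata3 and Tfap2c differed there by -0.84, 0.68, -0.21, -2.10 and -0.75 and were not called. Below background throughout a medium were Dcn, Postn and Sox7 in 2i/LIF and Lum, Postn, Elf5 and Neurog2 in KOSR/LIF. Their part in the members' differences was not tested.

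The scan day moved with the members' levels. The median over members, each centred on its mean over the arrays, was -0.03, 0.07 and -0.18 in serum/LIF, 0.02, -0.35, 0.25, 0.34 and 0.17 in 2i/LIF and 0.04, 0.10 and -0.35 in KOSR/LIF. The lowest values were those of 2i/LIF replicate 2 and KOSR/LIF replicate 3, the 2 arrays of the second scan day. Of 83 members, 57 had their lowest level on 1 of them, and the matching count over all genes is not given. The medians over all genes tested were also lowest on these 2 arrays, at -0.0913 and -0.0936, and -0.0148 or higher on the others. The same 2 arrays were the lowest of all for complexes I, II and V. In contrast, serum/LIF replicate 3 lay among the lowest for complexes III (-0.29) and IV (-0.37).

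Within a scan day 2i/LIF and serum/LIF stood further apart. Within the first day, with 2 arrays of each medium, the median difference of members in 2i/LIF against serum/LIF was 0.26 with 69 of 83 positive, and within the third, with 1 serum/LIF and 2 2i/LIF arrays, it was 0.32 with 76 positive. For complex III the values were 0.47 and 0.50, against 0.29 over all arrays. Between 2i/LIF and KOSR/LIF the members' median was 0.15 within the first day and -0.03 within the second, with 1 array of each medium, against 0.18 over all arrays. Between KOSR/LIF and serum/LIF it was 0.07 within the first day. With scan day as a block, 12 members (14.5%) were called higher in 2i/LIF than in serum/LIF, beside 20.8% of all genes called either way. With the slide as a random block 10 were (12%, beside 24.8%). Shares of all genes here and below count calls higher and lower together, and their split by direction is not given. The 9 called in both fits were Atp5g1, Atp5k, Cox6b1, Cox6b2, Cox7a1, Ndufb4, Ndufb5, Uqcr10 and Uqcr11. Within the first scan day 6 were called (7.23% and 14.6%), within the third 1 (1.2% and 6.84%), and without both arrays of the second day 9 (10.8% and 21.9%). The second day held no serum/LIF array. Under none of these settings was a member called lower in 2i/LIF against serum/LIF.

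**Figure D3:**
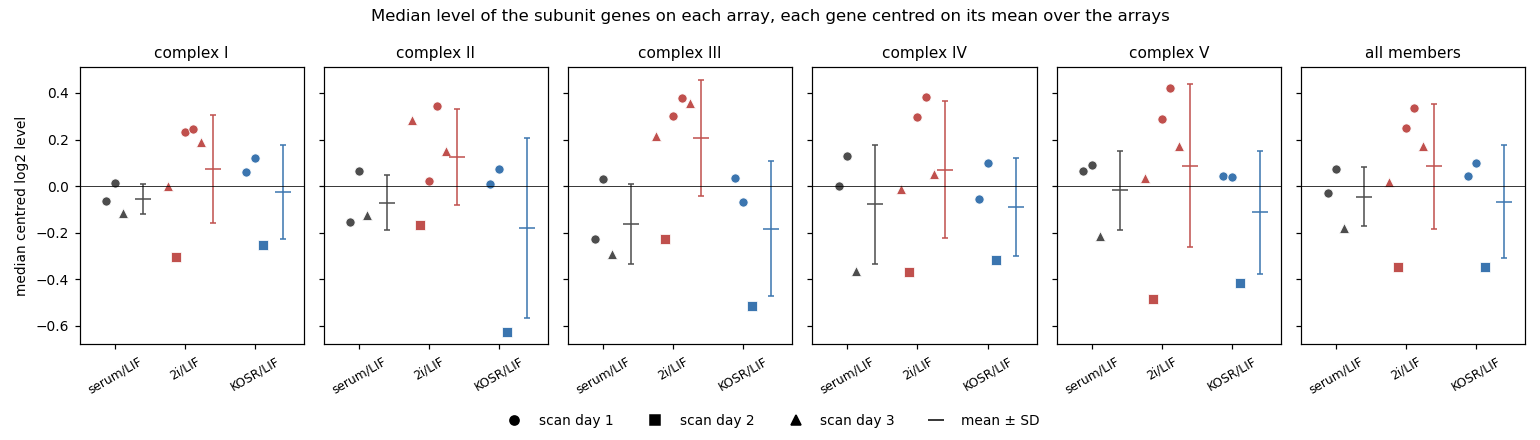
Median over the subunit genes of each complex, and of all 83, of the log2 level on each array after centring each gene on its mean over the 11 arrays (vertical axis), by medium, with marker shape for the scan day and bars for mean ± SD. The squares, the arrays of the second scan day, are the lowest of their medium in every panel. Circles and triangles of 2i/LIF mostly lie above those of serum/LIF.

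**Figure D4:**
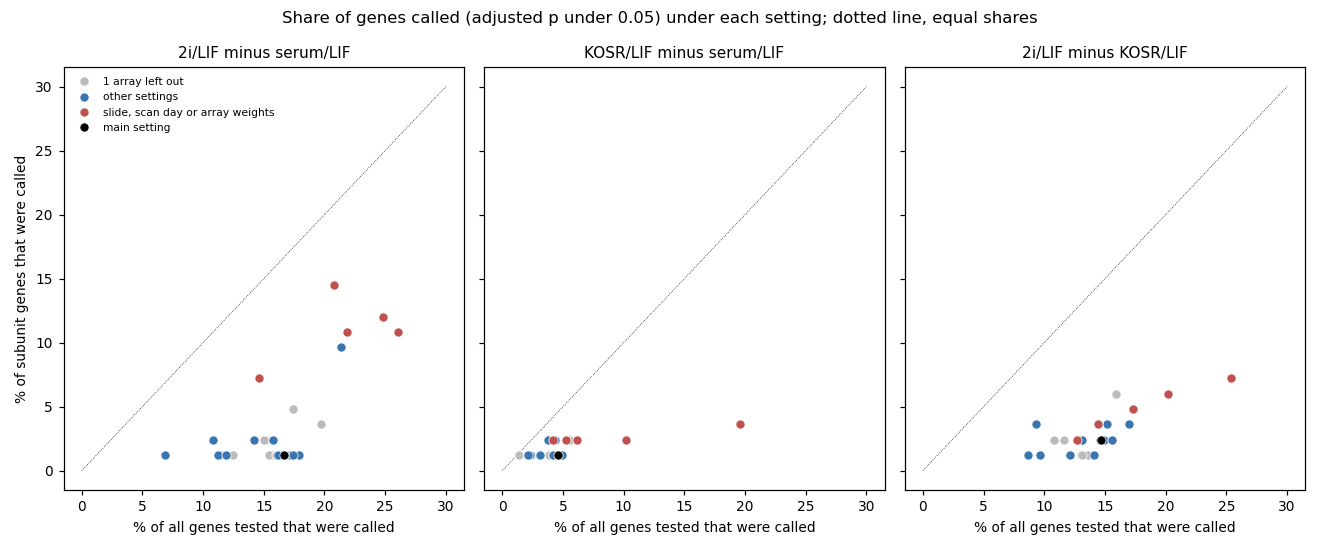
Share of the 83 subunit genes called (vertical axis, %) against the share of all genes called (horizontal axis, %) under each setting, with a dotted line at equal shares. In 2i/LIF against serum/LIF the main setting sits at 1.2% against 16.7%, and the settings that take up slide, scan day or array weights reach 14.5% against 20.8%.

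Genes that work beside the subunits were also seldom called. In the 3 comparisons, 16.7%, 4.57% and 14.7% of all genes were called, and 27%, 18.7% and 27.2% had an unadjusted p under 0.05. Of 44 assembly factor genes, 0 were called in 2i/LIF against serum/LIF (4 at an unadjusted p under 0.05), 0 in KOSR/LIF against serum/LIF (0 unadjusted) and 1 in 2i/LIF against KOSR/LIF by limma. That gene was Ndufaf4, a complex I assembly factor, higher by 0.81 ± 0.23 (adjusted p = 0.0321). It read 2.96, 2.76 and 2.78 in serum/LIF, 3.66, 2.90, 3.51, 3.56 and 3.47 in 2i/LIF and 2.83, 2.66 and 2.34 in KOSR/LIF, with 2i/LIF above KOSR/LIF on every array. Of 17 electron carrier and further subunit genes and of 17 tricarboxylic acid cycle genes, limma called 0 in any comparison, with 2, 2 and 3 carriers and 2, 2 and 1 cycle genes at an unadjusted p under 0.05.

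Of 16 regulators of mitochondrial biogenesis, 1 was called, Top1mt, the mitochondrial topoisomerase. It read 1.43, 1.38 and 1.40 in serum/LIF and 0.85, 0.68, 0.77, 0.51 and 0.36 in 2i/LIF, without overlap, and fell by 0.77 ± 0.19 (limma adjusted p = 0.0149). Regulators had 12 negative and 4 positive differences both in 2i/LIF and in KOSR/LIF against serum/LIF. Their medians were -0.14 and -0.30, against 0.03 and -0.03 for all genes. In 6 of the 16 (37.5%) all KOSR/LIF arrays lay below all serum/LIF arrays, against 16% of all genes, and in 0 above. Of 77 mitochondrial ribosomal protein genes, 1 was called, Mrpl23, which read 5.20, 5.18 and 5.14 in serum/LIF and 4.48, 4.49, 4.54, 4.93 and 4.31 in 2i/LIF and fell by 0.63 ± 0.20 (adjusted p = 0.0479). The median difference of these 77 genes in 2i/LIF against serum/LIF was 0.06.

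Where a gene had several probes, they mostly gave like values. Of 22 members with more than 1 passing probe, 4, 4 and 6 had probes of opposite sign in the 3 comparisons, and no gene had calls both ways. Between 2i/LIF and serum/LIF these were Atp5h, Atp5l, Cox7c and Ndufb11, and between KOSR/LIF and serum/LIF Cox7c, Ndufb11, Ndufv3 and Uqcr10. Between 2i/LIF and KOSR/LIF they were Atp5g2, Cox7c, Ndufa5, Ndufb11, Ndufv3 and Uqcrq. The widest gap was that of Ndufb11, a complex I accessory subunit, whose probes gave 0.07 and -0.99 in KOSR/LIF against serum/LIF.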

How the data were processed

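Gene expression was measured on 11 Agilent one-colour arrays. RNA was extracted with a Qiagen kit and labelled with Cy3, per the labels' protocols. Per the file headers, Feature Extraction 11.0.1.1 subtracted background from the deposited intensities and detrended each array, with no scaling between them. A deposited value table of intensities was an alternative, and its making is not given here. Accessions were named through a RefSeq gene table. Levels are log2 of the deposited intensity minus the 75th percentile of the array. Probes well above background on at least 3 arrays were kept, and the brightest probe stood for its gene. One limma 3.58.1 fit (R 4.3.3, all 11 arrays, no covariates, two-sided) gave the comparisons, with Benjamini-Hochberg adjustment over 16279 genes and per-gene 95% intervals, and was tested on simulated data. The number of arrays limits the precision, and p-values reflect only the spread among these samples, which may be technical.

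The members, lists and tests were chosen with earlier results of these data known. Any member could be named, except 1 that is counted but not reported singly here. Array values are given for called members, restricted isoforms, their partners and the member of highest mean signal in each complex, and of other lists the called genes with the largest differences. Normexp used the median signal with an offset of 50, because the scanner files hold no mean signal. Other alternatives were scaling, dim-probe filters, the mean over probes, array weights, slide, scan day, replicate number or line as a block, and leaving out arrays. Leaving out both arrays of the second scan day was added after the data were seen.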

Additional observations from a re-analysis of the deposited data

Results flagged for a closer look

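Among 25 sets of 5 2i/LIF values checked with Dixon's test (critical value 0.71), 2 held an array far from the others. Chance gives about 1 in 20, which is close to the number found. The sets share genes and arrays, so they are not independent. Cox7a2, the widely expressed form of subunit VIIa, read 5.00 on 2i/LIF replicate 2 and between 5.79 and 6.0 on the other 2i/LIF arrays, a gap of 0.79 of the range. The median of complex III was -0.23 on the same array and 0.22 to 0.38 on the others, a gap of 0.729 of the range. That array was scanned on the second day, with KOSR/LIF replicate 3. The median over all genes tested was also the lowest of 2i/LIF there, at -0.0913.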

How the results depend on the processing

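The call of Cox7a1 in 2i/LIF against serum/LIF held in 28 of 28 other settings, those of Cox8c in 27 of 27 in each comparison, and that of Cox6b1 in 2i/LIF against KOSR/LIF in 16 of 27. Differences of Cox8c ran from 1.66 to 3.08 in KOSR/LIF against serum/LIF and from -4.00 to -1.77 in 2i/LIF against KOSR/LIF. The number of members called higher in 2i/LIF than in serum/LIF was 2 with normexp, quantile normalization or without 2i/LIF replicates 1 and 5, 6 within scan day 1, 8 in the deposited table, 9 with array weights or without both arrays of scan day 2, 10 with the slide as a random block, 12 with the scan day as a block, and 1 to 4 with 1 array left out. The count was 4 without 2i/LIF replicate 2, 3 without KOSR/LIF replicate 3 and 2 without 2i/LIF replicate 4 or 5. In KOSR/LIF against serum/LIF it was 2 (Cox7a1 and Cox8c) with quantile normalization, the deposited table, slide, scan day, within scan day 1 and without both arrays of scan day 2, 3 with array weights and 1 to 2 with 1 array left out, the 2 without 2i/LIF replicate 2. The median of members there moved to 0.20 in the deposited table. In 2i/LIF against KOSR/LIF it was 2 with normexp, the deposited table, the mean over probes or without both arrays of scan day 2, 3 with the scan day, 4 with the slide, 5 with array weights, and 0 without a dim-probe filter, with the line of the titles as a block or without 2i/LIF replicates 1 and 5. It was 0 to 4 with 1 array left out, at 4 without 2i/LIF replicate 2 and at 0 without any of the serum/LIF arrays, 2i/LIF replicate 3, 4 or 5 or KOSR/LIF replicate 3. Without a dim-probe filter more genes were tested, and otherwise the cause was not tested. Beside these counts, 16.7%, 4.57% and 14.7% of all genes were called in either direction in the main fit. The shares were 10.8%, 2.28% and 9.29% with normexp and 21.4%, 4.37% and 17% in the deposited table. They were 24.8%, 10.2% and 20.2% with the slide and 20.8%, 6.14% and 17.3% with the scan day. With array weights they were 26.1%, 19.6% and 25.4%. With 1 array left out they ran from 11.5% to 19.7%, 1.38% to 5.61% and 10.8% to 15.9%.

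Replicate numbers were not used to pair the arrays in the main fit. Deviations of same-numbered arrays correlated between -0.202 and 0.183. Most same-numbered arrays were scanned on different days, so weak correlations cannot exclude a pairing. By the titles, same-numbered serum/LIF and 2i/LIF arrays share a line, but the source names disagree. With the replicate block the counts higher were 1, 1 and 0 in the 3 comparisons. Of all genes, 11.9%, 3.09% and 8.65% were called there in either direction. The median of members in 2i/LIF against serum/LIF was 0.02 with that block.

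For 14 complex IV genes, each difference was taken again in the other settings, 1162 values in all, so a gene could count several times. Of these values, 56 had changed sign in a setting other than 1 array left out and 24 with 1 array left out. None of those that changed sign was called in either fit (smallest limma adjusted p 0.189). In 2i/LIF against serum/LIF these were Ndufa4 with quantile normalization (-0.0089), in the deposited table (-0.011), with the replicate block (-0.16) and without 2i/LIF replicates 1 and 5 (-0.22). Cox4i1 changed with the slide (0.051), the scan day (0.023), within scan day 1 (0.088) and 3 (0.17), without 2i/LIF replicates 1 and 5 (0.0044) and without both arrays of scan day 2 (0.0201). Cox7b changed with the slide (0.038), the scan day (0.058), array weights (0.0401), within scan day 1 (0.17) and 3 (0.0903) and without both arrays of scan day 2 (0.069). Ndufa4l2 changed in the deposited table (0.79), with the slide (0.16), within scan day 1 (1.07) and without 2i/LIF replicates 1 and 5 (0.53). Cox6a1 changed with the replicate block (-0.066) and the line of the source names (-0.019), and Cox8c within scan day 3 (0.0084). In KOSR/LIF against serum/LIF they were Cox4i1 (0.15 and 0.037), Cox7a2 (0.0705 and 0.064) and Cox7b (0.041 and 0.0084) with quantile normalization and in the deposited table, and Cox7a2 with the scan day (0.14), array weights (0.0605) and without both arrays of scan day 2 (0.10).

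In 2i/LIF against KOSR/LIF, Cox4i1 changed with normexp (0.12), the slide (0.19), the scan day (0.088), array weights (0.14), within scan day 1 (0.36), without 2i/LIF replicates 1 and 5 (0.055) and without both arrays of scan day 2 (0.078). Cox6b2 changed with normexp (0.21), in the deposited table (0.28), with the slide (0.28), the scan day (0.32), the replicate block (0.32), array weights (0.39), within scan day 1 (0.48), without 2i/LIF replicates 1 and 5 (0.26) and without both arrays of scan day 2 (0.24). Cox7b changed with quantile normalization (-0.078), in the deposited table (-0.042) and with the replicate block (-0.082). Cox7b2 changed in the deposited table (-0.27), with array weights (-0.30) and within scan day 1 (-0.11), and Cox6a2 within scan day 1 (-0.65) and without both arrays of scan day 2 (-0.026). With 1 array left out, the differences that changed sign ran over these ranges. In 2i/LIF against serum/LIF they lay from -0.32 to 0.0201 for Cox4i1, from -0.14 to 0.11 for Cox6a1, from -0.18 to 0.0686 for Cox7b, from -0.10 to 0.23 for Ndufa4 and from -1.55 to 0.12 for Ndufa4l2. For KOSR/LIF against serum/LIF they lay from -0.27 to 0.0685 for Cox4i1, from -0.19 to 0.10 for Cox7a2, from -0.0166 to 0.88 for Cox7b2 and from -0.0785 to 0.40 for Cox8a. Those of 2i/LIF against KOSR/LIF lay from -0.17 to 0.0709 for Cox4i1, from -0.28 to 0.39 for Cox6b2 and from -0.0307 to 0.20 for Cox7b.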
